A study of Mus musculus with 3 samples.

Results

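Interferon-induced GTPases were followed across the immune cells of transplanted mouse lungs. The set held 10 genes of the 32285 in each feature list, namely 5 immunity-related GTPases (Iigp1, Igtp, Irgm1, Irgm2 and Tgtp2) and 5 guanylate-binding proteins (Gbp2, Gbp3, Gbp4, Gbp5 and Gbp7). Each gene was matched by its symbol, and its unique molecular identifiers (UMIs, 1 per captured RNA molecule) were summed per library over the cells of 6 lineages (T, NK, B, neutrophil, monocyte and macrophage) that were named from marker genes. The members were chosen by these summed UMIs, that is by their levels across libraries and lineages, so the levels are given as a description, without a test. The data were single-cell RNA-seq of left lungs from C57BL/6J mice in 3 libraries, each a pool of cells from 2 mice. One library came from naive lungs. The other two came from syngeneic grafts, taken from CD45.2 donors, kept 60 min at 4 °C and a further 45 min at 28 °C, and placed in CD45.1 recipients, in which they were reperfused for 2 hours or for 3 days. Cells were stained for CD45.1, CD45.2 and DAPI before sorting, and the study's text describes the sorted cells as those of the recipient. With 1 library per group there was no replicate, so intervals given here cover counting error only and say nothing of variation between mice.

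These GTPases are part of cell-autonomous immunity, the defence that any cell can mount against microbes inside it. Interferon gamma, signalling through its receptor, turns on both families, and type I interferon also induces many members. Immunity-related GTPases such as Iigp1 (Irga6) and Igtp (Irgm3) act at the vacuole around an intracellular parasite or bacterium. Iigp1 and Tgtp2 (Irgb6) belong to the GKS class of effectors that assemble on the vacuole, whereas Irgm1, Irgm2 and Igtp form the GMS class that keeps the effectors inactive on the membranes of the host. Guanylate-binding proteins coat such vacuoles and free bacteria, and Gbp2 and Gbp5 are known for promoting inflammasome activation.

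The members lay in a few gene clusters (GENCODE vM21, GRCm38). On chromosome 3, on the plus strand, Gbp5 (ENSMUSG00000105504) spanned chr3:142493978-142522344, Gbp7 (ENSMUSG00000040253) chr3:142530342-142550149, Gbp3 (ENSMUSG00000028268) chr3:142560026-142573209 and Gbp2 (ENSMUSG00000028270) chr3:142620602-142638008. Gbp4 (ENSMUSG00000079363) lay at chr5:105115767-105139586 on the minus strand. On chromosome 11, Irgm1 (ENSMUSG00000046879) lay at chr11:48861968-48871683 and Tgtp2 (ENSMUSG00000078921) at chr11:49057194-49064206, both on the minus strand. Igtp (ENSMUSG00000078853) at chr11:58199556-58207591 and Irgm2 (ENSMUSG00000069874) at chr11:58199618-58222782 overlapped on the plus strand, and 8.01% of the exonic bases of Igtp also belonged to Irgm2. Of the windows of 50 bases in the transcripts of Tgtp2, 86.6% were also found in another gene, mostly Tgtp1, so the division of reads between Tgtp1 and Tgtp2 is uncertain. For the other 9 members this share lay between 0.310% (Irgm1) and 12.7% (Gbp7, shared mostly with Gm43802).

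RefSeq promoter windows (GRCm38.p6, 250 bases before to 50 after the annotated start) were matched to 8 of the 10 members by symbol, all except Iigp1 and Gbp4. Both strands were searched for the gamma-activated site TTCNNNGAA (GAS, an element of promoters that respond to interferon gamma) and for an interferon-stimulated response element core, GAAANNGAAA or its complement TTTCNNTTTC (ISRE-like). An ISRE-like match was present in 8 of the 8 members, against 3.44% of all 32851 promoter windows. A GAS match was present in 5 of the 8 (Igtp, Irgm2, Tgtp2, Gbp5 and Gbp7), against 8.30% of all windows. No GAS and ISRE-like match overlapped each other, whereas both ISRE-like matches of Irgm1 and both of Gbp3 overlapped. A further Gbp3 window, for a second annotated start, held neither. Stretches of 6 members ending at the base before the start are shown, with the matches in capitals, except that the first GAS of Gbp5 lies beyond the printed bases. Gbp5 and Gbp7 had the largest ratios in T cells, Igtp, Irgm2 and Tgtp2 share an order of matches but not a ratio in T cells, and Gbp2 was highest in neutrophils.
Gbp5 promoter, GRCm38.p6, chr3:142496744-142496933, plus strand: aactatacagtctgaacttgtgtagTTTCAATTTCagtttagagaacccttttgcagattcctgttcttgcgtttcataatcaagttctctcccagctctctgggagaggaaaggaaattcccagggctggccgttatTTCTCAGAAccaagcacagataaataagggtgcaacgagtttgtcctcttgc
Gbp7 promoter, GRCm38.p6, chr3:142530216-142530335, plus strand: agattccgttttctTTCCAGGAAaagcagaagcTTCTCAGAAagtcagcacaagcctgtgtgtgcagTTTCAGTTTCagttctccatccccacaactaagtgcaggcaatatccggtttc
Igtp promoter, GRCm38.p6, chr11:58199436-58199555, plus strand: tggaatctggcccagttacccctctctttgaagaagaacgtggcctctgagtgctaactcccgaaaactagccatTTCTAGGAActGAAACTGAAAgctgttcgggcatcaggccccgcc
Irgm2 promoter, GRCm38.p6, chr11:58214857-58214976, plus strand: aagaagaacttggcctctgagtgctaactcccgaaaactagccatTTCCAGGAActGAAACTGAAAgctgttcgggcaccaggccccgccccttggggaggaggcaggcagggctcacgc
Tgtp2 promoter, GRCm38.p6, chr11:49064213-49064332, minus strand: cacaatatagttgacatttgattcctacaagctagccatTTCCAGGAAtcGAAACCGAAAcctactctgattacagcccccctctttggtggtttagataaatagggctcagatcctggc
Gbp2 promoter, GRCm38.p6, chr3:142620543-142620662, plus strand: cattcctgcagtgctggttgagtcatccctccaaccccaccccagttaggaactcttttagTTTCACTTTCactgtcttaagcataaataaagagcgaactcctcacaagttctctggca

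In Igtp the GAS ran from -45 to -37 and the ISRE-like match from -34 to -25, counted from the start. The order and spacing were the same in Irgm2, with the GAS from -75 to -67 and the ISRE-like match from -64 to -55, and in Tgtp2, with the GAS from -81 to -73 and the ISRE-like match from -70 to -61. Gbp7 had a pair of GAS matches starting at -106 and -87 ahead of an ISRE-like match at -53. In Gbp5 the GAS matches started at -245 and -52 and the ISRE-like match at -165. Gbp2 held only the ISRE-like match, from -59 to -50. A match is a run of letters and was not measured as a binding site.

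**Figure D1:**
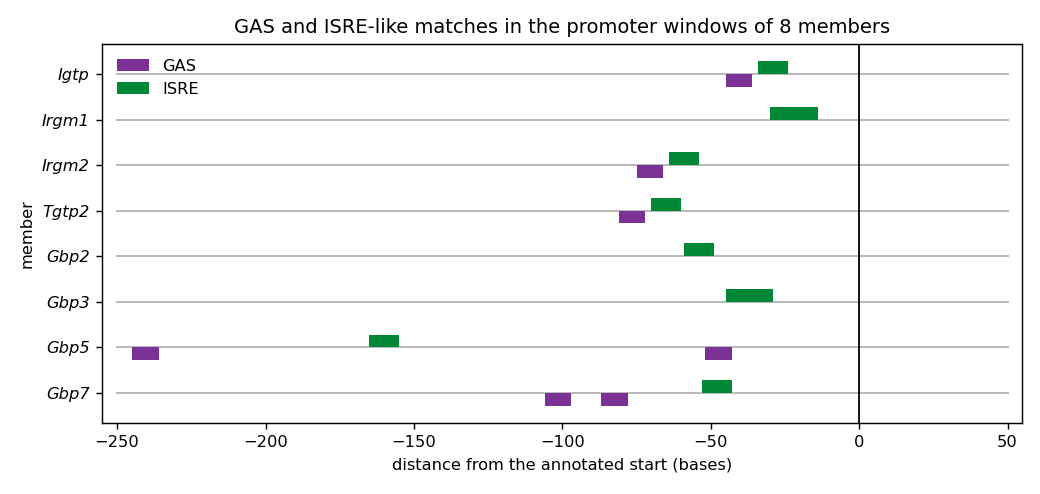
Positions of GAS and ISRE-like matches in the RefSeq promoter windows of 8 members, as distance in bases from the annotated start (vertical line). The ISRE-like match lies within 70 bases before the start in 7 members and at -165 in Gbp5, and 5 members also hold a GAS match.

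Depth differed between the libraries. The naive library held 2921 barcodes and 28538529 UMIs, the 2-hour library 10328 barcodes and 10749100 UMIs, and the 3-day library 9016 barcodes and 70750470 UMIs. After cell filters 2422, 10283 and 8324 cells remained, with medians of 7298.5, 878 and 5716.5 UMIs per cell. T cells numbered 576, 2475 and 709 in naive, 2-hour and 3-day libraries, NK cells 516, 1051 and 326, B cells 555, 1418 and 1904, neutrophils 388, 4391 and 2261, and monocytes 141, 452 and 1222. Macrophages numbered 107, 5 and 799, so no macrophage value is compared at 2 hours. The markers of T, NK, B and neutrophil were each highest in the lineage they name, whereas the 14 monocyte markers summed in 3-day macrophages to 159% of their level in 3-day monocytes. In the 2-hour library the 7 T markers summed in NK cells to 42.9% of their level in T cells, against 7.51% in the naive and 13.1% in the 3-day library. The libraries shared between 1 and 23 barcodes. By their headers the naive matrix was made with Cell Ranger 7.1.0 and both transplant matrices with 6.0.0. The labels name both a 5ʹ and a 3ʹ kit, and the study's methods name a 3ʹ kit for its samples. Which library used which kit is not stated. By the study's methods the CD45.1 strain of the recipients is a B6.SJL congenic line, and the naive lungs came from B6 mice. Software, congenic strain and the origin of the cells (recipient cells in a graft, or cells of a naive lung) therefore cannot be told apart from transplantation. This holds for all comparisons with the naive library, and also for the kit if it differed. Levels below are CPM (counts scaled to 1000000 UMIs of the lineage in that library) with 95% exact Poisson intervals, and ratios are log2 ratios of CPM with 95% exact conditional intervals.

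T cells at 2 hours held the highest summed level of the 10 members in any of the 6 lineages. The sum in naive lungs was 282.9 CPM, at 2 hours 1078 CPM and at 3 days 387.7 CPM, from 1645, 3314 and 2601 UMIs. The 2-hour level stood 3.81-fold above the naive level (log2 ratio 1.93, 1.84 to 2.02) and 2.78-fold above the 3-day level (log2 ratio of 3 days to 2 hours -1.48, -1.55 to -1.40). The 3-day level was 1.37-fold the naive level (0.45, 0.37 to 0.54). Over all genes in T cells the median log2 ratio was -0.32 (2 hours to naive), -0.17 (3 days to naive) and 0.12 (3 days to 2 hours), so relative to the median gene the sums differed by 2.25, 0.63 and -1.59. The guanylate-binding proteins summed to 137.8, 643.5 and 195.0 CPM and the immunity-related GTPases to 145.2, 434.6 and 192.7 CPM. Both families were therefore highest at 2 hours, the former 4.67-fold and the latter 2.99-fold above naive. Fewer molecules per cell and a different mix of T cells cannot be told apart in sums over a lineage.

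**Figure D2:**
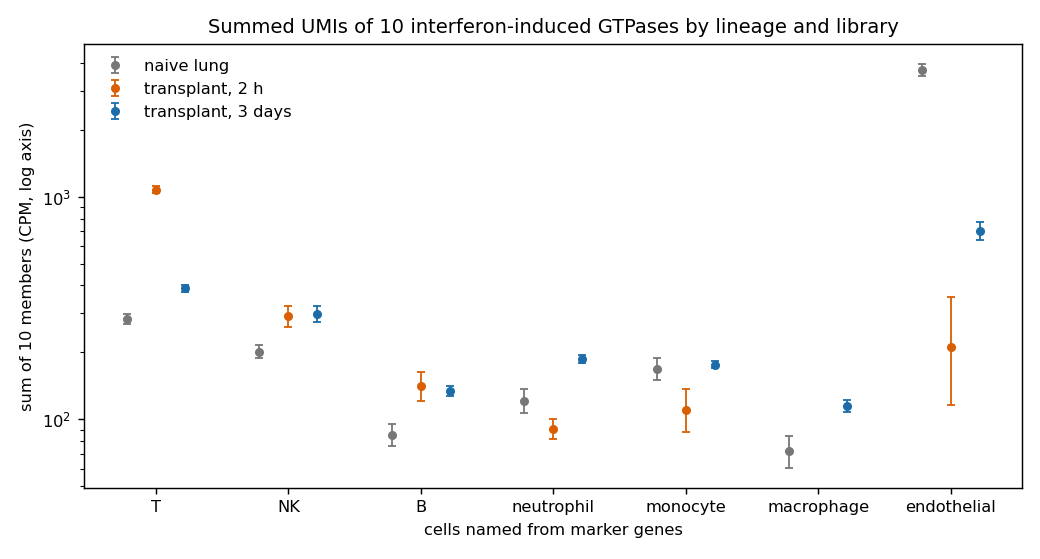
Summed level of the 10 members in CPM (log axis) for 6 lineages and for endothelial-like cells, with bars for 95% exact Poisson intervals. T cells at 2 hours stand at 1078 CPM, above every other lineage, while naive endothelial-like cells reach 3717 CPM. Macrophages at 2 hours (5 cells) are not drawn.

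All 10 members passed the level filter in T cells, which asks for 10 CPM or more on average over the 3 libraries. Of the 10, 7 were over 2-fold higher at 2 hours than in naive lungs, where 7.2% of the 7683 genes at that level were. The same number were over 2-fold lower at 3 days than at 2 hours, where 7.61% of genes were. These contrasts helped to choose the members, so the shares are given only as background. In other lineages some members reached the filter only through the libraries in which they were high, and counts there support nothing. Over the members the median log2 ratio was 1.76 in the first contrast and -1.28 in the second.

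Gbp7 contributed most UMIs in T cells at 2 hours, with 42.1 CPM in naive lungs against 288 and 50.8 CPM at 2 hours and 3 days. Its naive and 3-day levels were close, and the 2-hour level was 6.84-fold and 5.67-fold above them. Gbp7 made up 26.7% of the members' UMIs in T cells at 2 hours, against 14.9% in naive T cells. In naive and 3-day T cells Igtp made up the largest share, at 17.4% and 18.5%. Without Gbp7 the sum of the other 9 still differed by 1.71 for 2 hours to naive and by -1.23 for 3 days to 2 hours on the log2 scale.

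Gbp5, the inflammasome-linked member, stood at 15.5, 113 and 33.1 CPM in naive, 2-hour and 3-day T cells. Its 7.31-fold difference between 2 hours and naive had the highest point value of the members (log2 ratio 2.87, 2.53 to 3.22), with an interval that overlapped that of Gbp7 (2.77, 2.57 to 2.98). Gbp5 was also the single member over 2-fold higher at 3 days than in naive T cells (2.14-fold), in a contrast in which 2.88% of genes were. Gbp4 stood at 36.1, 150.0 and 46.2 CPM. Gbp2 stood at 33.0, 70.3 and 49.5 CPM and Gbp3 at 11.0, 21.8 and 15.4 CPM. For Gbp2 and Gbp3 the 2-hour level was also the highest, but the ratio of 3 days to 2 hours was only -0.51 for each.

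Among the immunity-related GTPases, Igtp had the highest level, with 49.4 CPM in naive lungs against 167 and 71.7 CPM at 2 hours and 3 days. Iigp1 (ENSMUSG00000054072, chr18:60376027-60392634, plus strand), an effector that loads on vacuoles, stood at 23.7, 117 and 37.0 CPM. The regulator Irgm1 stood at 21.8, 73.8 and 29.4 CPM. These 3 genes were 3.39-fold, 4.92-fold and 3.38-fold higher at 2 hours than in naive T cells, and each was over 2-fold lower at 3 days than at 2 hours. Irgm2 differed less, with 29.2, 47.2 and 40.7 CPM, and its interval for 3 days to 2 hours reached past 0 (-0.21, -0.51 to 0.09). Tgtp2 stood at 20.98, 29.6 and 14.0 CPM. It was the single member whose 3-day level in T cells was below the naive level (-0.58, -0.99 to -0.18), with the reservation that its reads are shared with Tgtp1, which stood at 14.6, 59.2 and 14.8 CPM.

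**Figure D3:**
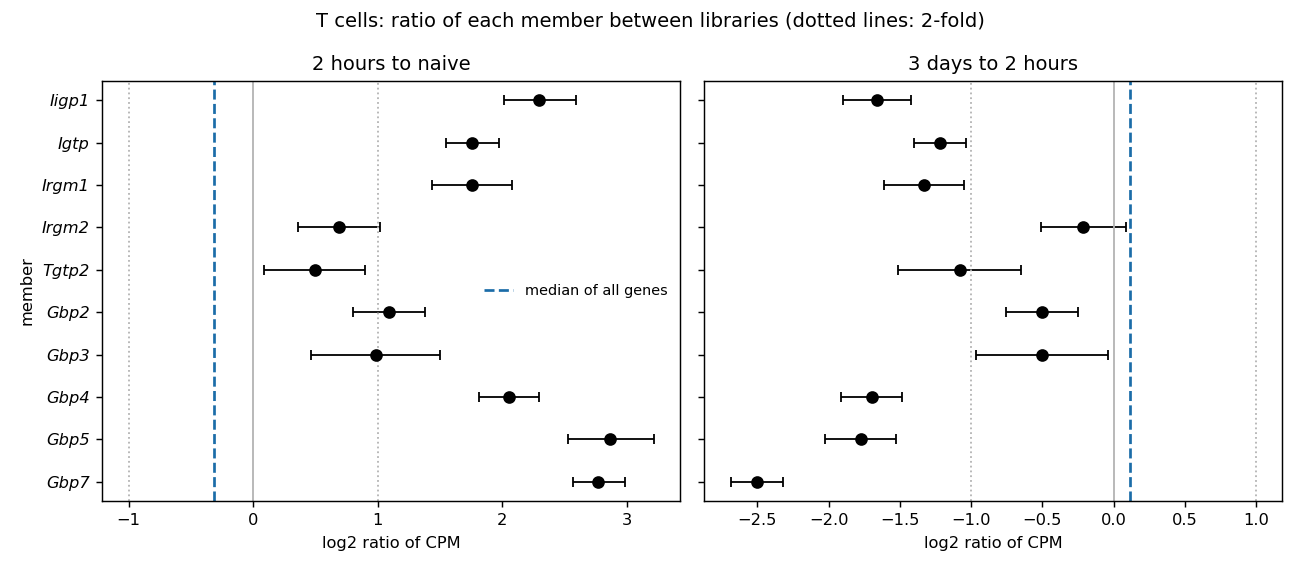
Log2 ratio of CPM of each member in T cells for 2 hours to naive (left) and 3 days to 2 hours (right), with 95% exact conditional intervals. The dashed line is the median of all genes and dotted lines mark 2-fold. All 10 points lie to the right of the median gene at left and to its left at right, with Irgm2 nearest to it at right.

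The level in T cells did not rest on a few cells. After each cell was thinned to 500 UMIs, 8.85% of naive T cells held a UMI of any member (51 cells, exact binomial interval 6.66% to 11.5%), 37.6% at 2 hours (35.7% to 39.5%) and 18.3% at 3 days (15.6% to 21.4%). UMIs of at least 2 members were found in 2.60%, 10.1% and 2.40% of these cells. Without thinning the shares were 72.0%, 58.8% and 82.2%, at median depths of 9842.5, 1128 and 8799 UMIs, with the lowest share at the lowest depth. In neutrophils, the lineage with the lowest summed level at 2 hours, 3.36% of thinned cells held a member UMI at that time, and thinning left out 14 T cells and 340 neutrophils of the 2-hour library. The tenth of T cells with the highest member fraction held 44.7% of all member UMIs in naive lungs, 36.4% at 2 hours and 34.2% at 3 days. By this unthinned measure T cells were not more unequal at 2 hours than in naive lungs, although the 2-hour cells were shallower. At least 5 members were detected together in 54 of the 576 naive T cells, 33 of the 2475 at 2 hours and 85 of the 709 at 3 days. The most members in a single T cell were 9, 8 and 10. These counts were made without thinning, and depth was lowest at 2 hours.

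T cells of the 2-hour library fell into 3 clusters, which held 1197 CPM (cluster 3, 1516 cells), 1037 CPM (cluster 10, 619 cells) and 620 CPM (cluster 20, 339 cells). Each was above the main T clusters of naive lungs (284 CPM) and of 3 days (390 CPM). Cluster 21 (346 cells at 3 days, 329 CPM) was closest to T cells by its markers. Markers of another type led among its leading genes, so it stayed unnamed and outside the T lineage. Igtp and Iigp1 were among the 10 leading genes of cluster 3, which also included the immunoglobulin light chain gene Iglc3. Leaving out cluster 3 gave log2 ratios of 1.65 (2 hours to naive) and -1.20 (3 days to 2 hours). T cells with Cd8 UMIs and no Cd4 UMI held 313, 992 and 369 CPM in naive, 2-hour and 3-day libraries. T cells with Cd4 UMIs and no Cd8 UMI held 282, 1270 and 475 CPM. The order of the libraries was the same in both. At 2 hours the Cd4 cells were above the Cd8 cells, with intervals of 1110 to 1446 and 913 to 1076 CPM. The same held at 3 days, with intervals of 442 to 509 and 351 to 388 CPM, whereas the naive intervals overlapped. At 2 hours most T cells (1934 of 2475) held neither or both, and these stood at 1085 CPM.

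**Figure D4:**
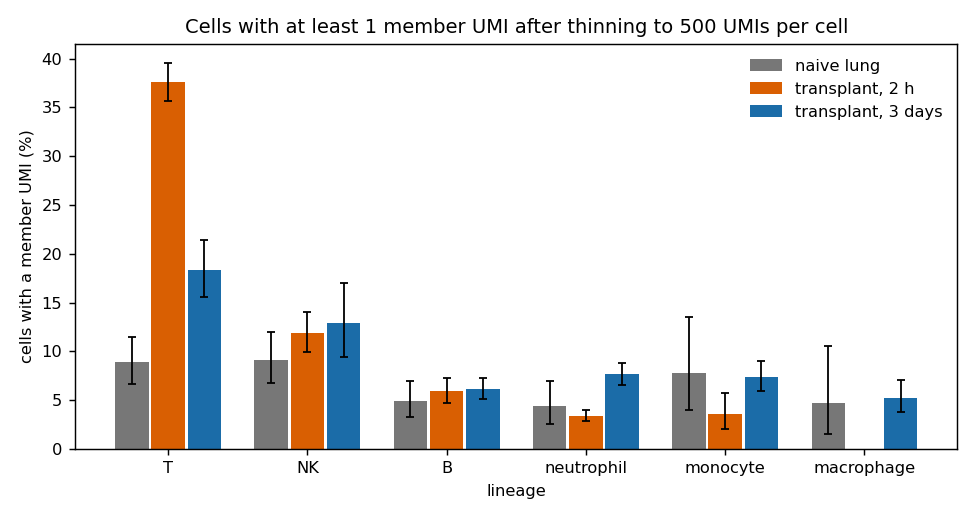
Share of cells with at least 1 UMI of any member after every cell was thinned to 500 UMIs (bars, in %), with 95% exact binomial intervals. T cells at 2 hours reach 37.6%, and every other bar lies below 19%. Macrophages at 2 hours (5 cells) are not drawn.

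Set beside the other lineages of the same library, T cells held the highest point value of each of the 10 members at 2 hours. The sum in T cells was 3.71-fold that in NK cells, the next lineage (log2 1.89, 1.72 to 2.06). The separation was widest for Iigp1 (11.5-fold over NK cells) and Igtp (8.23-fold), and for Gbp3 the T level did not separate from that of B cells (21.8 and 20.2 CPM). In naive lungs the sum in T cells was 1.40-fold that in NK cells, and 5 of the 10 members were higher in another lineage. At 3 days it was 1.30-fold that in NK cells, and 5 members were again higher elsewhere.

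**Figure D5:**
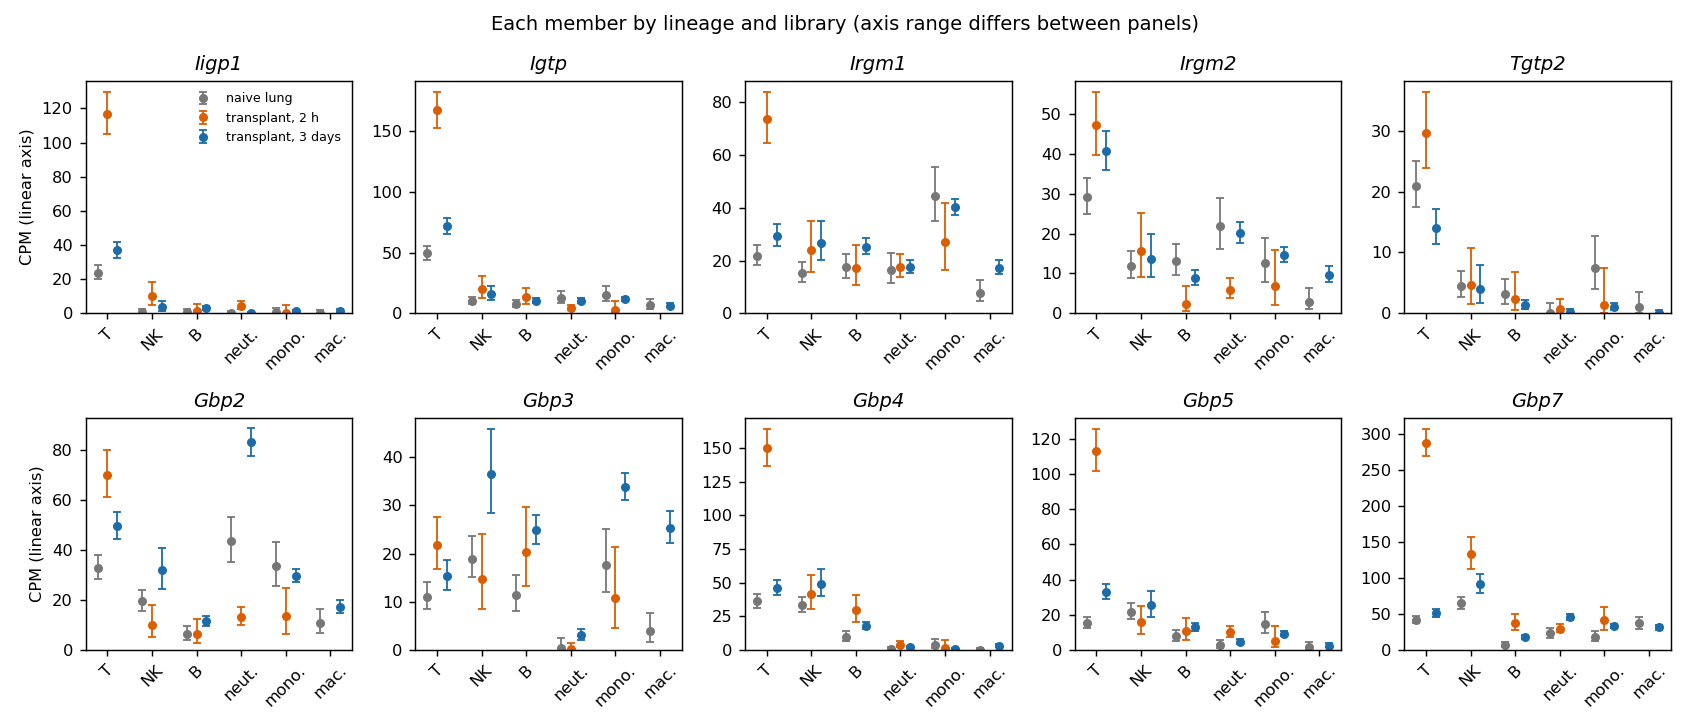
Level of each member in CPM (linear axes, range differing between panels) in 6 lineages (neut., neutrophil; mono., monocyte; mac., macrophage) of the 3 libraries, with 95% exact Poisson intervals. Iigp1 and Igtp stand apart in T cells, Gbp2 peaks in neutrophils at 3 days (83.1 CPM) and Gbp3 in NK cells at 3 days (36.5 CPM). Macrophages at 2 hours are not drawn.

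In NK cells of naive lungs the sum was 201.8 CPM, against 291.0 and 298.8 CPM at 2 hours and 3 days. Both transplant libraries stood above the naive one (0.53 and 0.57 on the log2 scale, and 0.80 and 0.58 relative to the median gene) and did not separate from each other (0.04, -0.16 to 0.24). Gbp7 held the most UMIs, with 65.1, 134 and 91.7 CPM, and was the single one of 8 members at the level filter over 2-fold higher at 2 hours than in naive NK cells, where 8.29% of genes were. Without Gbp7 the log2 ratio of 2 hours to naive was 0.20. The T markers in the 2-hour NK cells, given above, move with this contrast, and their part in it was not tested. At 3 days none of the 8 was over 2-fold above naive, in a contrast in which 4.42% of genes were, and Gbp3, at 19.0, 14.8 and 36.5 CPM, was nearest with a ratio of 0.94. Gbp4 did not differ beyond counting error between 2 hours and the other libraries (33.7, 41.6 and 49.1 CPM). Iigp1 rested on 4, 11 and 7 UMIs.

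In B cells the sum was 85.3, 140.9 and 134.0 CPM, the lowest of the lymphoid lineages in all 3 libraries. The guanylate-binding proteins accounted for the difference between 2 hours and naive, with 42.8, 104 and 85.2 CPM, whereas the immunity-related GTPases stood at 42.5, 36.6 and 48.8 CPM with an interval for 2 hours to naive that included 0 (-0.22, -0.72 to 0.27). Of 6 members at the level filter, Gbp4 and Gbp7 were over 2-fold higher at 2 hours than in naive B cells, where 8.62% of genes were, and Gbp3 and Gbp7 were over 2-fold higher at 3 days than in naive B cells, where 3.79% of genes were. Gbp7 stood at 7.13, 37.4 and 17.8 CPM and Gbp4 at 9.98, 29.6 and 17.9 CPM. Both were under 10 CPM in naive B cells and reached the level filter only through the transplant libraries, so their counts past 2-fold support nothing. The levels of Gbp7 and Gbp4 at 2 hours rested on 48 and 38 UMIs. In the same library the T markers summed in B cells to 3.23% of their level in T cells, against 0.715% in naive B cells. The part of T cell RNA in these levels was not tested. Iigp1 rested on 2 UMIs at 2 hours.

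Neutrophils had their lowest sum at 2 hours, with 121.1, 90.5 and 187.2 CPM. They lay mostly in cluster 18 in naive lungs, in clusters 0, 5 and 19 at 2 hours and in cluster 1 at 3 days, so different clusters are compared. The log2 ratio of 2 hours to naive was -0.42, and -0.17 relative to the median gene. The 3-day level was 2.07-fold the 2-hour level (log2 ratio 1.05, 0.88 to 1.22, and 0.81 relative to the median gene). One gene made most of this pattern. Gbp2 stood at 43.6, 13.2 and 83.1 CPM in naive, 2-hour and 3-day neutrophils, the highest level of Gbp2 in any of the 6 lineages, with 3 intervals that did not overlap. Its 3-day level was 6.28-fold its 2-hour level. Irgm2 was also lowest at 2 hours, but its 3-day level was not above its naive level, with 21.8, 5.97 and 20.1 CPM. Irgm1 hardly differed, with 16.5, 17.6 and 17.6 CPM. Gbp7 stood at 23.1, 29.8 and 45.7 CPM, in another order. Of the 4 members at the level filter, Gbp2 and Irgm2 were over 2-fold lower at 2 hours than in naive neutrophils, where 23.1% of genes were, and the same pair were over 2-fold higher at 3 days than at 2 hours, where 13.4% of genes were. Irgm2 was under 10 CPM at 2 hours and reached the filter only through the naive and 3-day libraries, so its counts past 2-fold support nothing. When neutrophils were called per cell from markers instead of by cluster, the ratio of 3 days to 2 hours for the sum was 0.27 and that of 2 hours to naive turned from -0.42 to 0.25. Iigp1 held 0, 17 and 1 UMIs in neutrophils, and Tgtp2 0, 3 and 2. In the naive library 0 UMIs allows up to 1.34 CPM.

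Monocytes held 168.9, 110.8 and 175.7 CPM, with a naive and a 3-day level that did not separate (0.06, -0.12 to 0.23). The 2-hour sum rested on 82 UMIs. Its log2 ratio to naive was -0.61, and -0.31 relative to the median gene. Monocytes also lay in different clusters, mostly cluster 27 in naive lungs, 14 at 2 hours and 7 and 15 at 3 days. Irgm1 was the most abundant immunity-related GTPase, with 44.4, 27.0 and 40.2 CPM, above its level in T cells in the naive and 3-day libraries. Of 5 members at the level filter, 1 (Gbp2, at 33.6, 13.5 and 29.8 CPM) was over 2-fold lower at 2 hours than in naive monocytes, where 26.5% of genes were, and Gbp7 (18.8, 41.9 and 33.1 CPM) was over 2-fold higher, where 8.98% of genes were. Between 2 hours and 3 days, 3 of the 5 (Irgm2, Gbp2 and Gbp3) were over 2-fold higher at 3 days, where 14.7% of genes were. After the median gene was subtracted 1 of 5 was, and the share of all genes after that step was not computed. Irgm2 made up 6.10% of the 82 member UMIs at 2 hours and was under 10 CPM there. It reached the level filter only through the naive and 3-day libraries, so its count past 2-fold supports nothing. Gbp3 stood at 17.6, 10.8 and 33.8 CPM, and its 3-day level was above the naive level (0.94, 0.42 to 1.51). In the 2-hour monocytes the neutrophil markers summed to 11.3% of their level in neutrophils, against 0.881% in the naive and 1.41% in the 3-day library, and their part in the lower sum was not tested. When monocytes were called per cell, the low 2-hour value was not found, with log2 ratios of -0.0033 for 2 hours against naive and 0.18 for 3 days against 2 hours. Monocytes with Ly6c2 and no Ace UMIs, the classical kind, held 174, 199 and 195 CPM. Those with Ace and no Ly6c2 UMIs, the nonclassical kind, held 163, 78.9 and 134 CPM, with 26 UMIs at 2 hours. These kinds cover 74 and 214 of the 452 monocytes at 2 hours, and the rest held both or neither gene.

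Macrophages held 71.9 CPM in naive lungs and 115.0 CPM at 3 days (log2 ratio 0.68, 0.43 to 0.94, and 0.91 relative to the median gene). The cells compared were of different kinds, alveolar macrophages in cluster 28 in naive lungs and cells of clusters 9 and 25 at 3 days. Irgm1 (7.88 and 17.3 CPM) and Gbp3 (3.94 and 25.4 CPM) were over 2-fold higher at 3 days, where 11.5% of genes were. Both were under 10 CPM in naive macrophages and reached the level filter only through the 3-day library, so their counts past 2-fold support nothing. Gbp7, with 37.0 and 31.6 CPM, did not separate. At 3 days cluster 25 held 150 CPM and cluster 9 held 101 CPM.

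The highest summed level of any cluster lay outside the lineages, in endothelial-like cells, which carried Cdh5 and Cldn5 among their leading genes. Their first leading gene was Sftpc, a surfactant gene of alveolar epithelium. They numbered 92, 49 and 297 and held 3717, 212 and 706 CPM, from 1025, 14 and 454 UMIs. Iigp1 alone stood at 1400 CPM in naive endothelial-like cells (386 UMIs), 30.2 CPM at 2 hours (2 UMIs) and 224 CPM at 3 days (144 UMIs). Each of the 10 members was higher in naive endothelial-like cells than in T cells of any library except Gbp7, at 283 CPM against 288 CPM, and Igtp, at 127 CPM against 167 CPM. UMIs of any member were found in 68.5% of the naive cells and 31.6% of the 3-day cells, and the tenth of cells with the highest member fraction held 65.0% and 61.9% of the UMIs. In T cells the latter share was 44.7%, 36.4% and 34.2% in naive, 2-hour and 3-day libraries. These shares were unthinned. Median depth was 1327.5 and 791 UMIs in naive and 3-day endothelial-like cells. In naive, 2-hour and 3-day T cells it was 9842.5, 1128 and 8799 UMIs. The naive endothelial-like share was thus above that of 2-hour T cells, whose median depth was lower. The part of depth in the other differences from T cells was not tested. Endothelial cells lack CD45, and how these cells passed the sort was not tested.

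Over the 17 profiles with a value (6 lineages by 3 libraries, less macrophages at 2 hours), members were compared by the Pearson correlation of log2(CPM + 10) with the mean of the other members, as a description, since profiles of 1 library share its depth. Igtp (0.93), Gbp5 (0.92), Iigp1 (0.90), Tgtp2 (0.87) and Gbp4 (0.81) were most alike. Gbp2 (0.48) and Gbp3 (0.32) were least alike, and they were also the members whose highest profile was not T cells at 2 hours. Among the 8238 genes that reached 10 CPM on average, members at that level included, the non-members most like the members' mean were Ifi208 (0.92), Ifi47 (0.91), Socs1 (0.90), 1810041H14Rik (0.90), Lat (0.89), Tcf7 (0.89), Itm2a (0.87), Pja1 (0.87), Trac (0.87) and Ndrg3 (0.87). All 10 were highest in T cells at 2 hours. Ifi47 is a GTPase of the same family and Socs1 a feedback inhibitor of cytokine receptors, while Lat, Tcf7 and Trac are genes of T cells in general.

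Other interferon-induced GTPases resembled the members in part. Of 12 on the list, 7 passed the level filter in T cells, and 4 of these (Tgtp1, Ifi47, Gbp6 and Gbp9) were over 2-fold higher at 2 hours than in naive T cells, where 7.2% of genes were, while Gvin1 was over 2-fold lower. Ifi47 stood at 49.2, 236 and 78.6 CPM in naive, 2-hour and 3-day T cells. Gvin1, a very large GTPase, stood at 47.5, 6.51 and 10.1 CPM, in the opposite order. In T cells 26.2% of genes were over 2-fold lower at 2 hours than in naive lungs. Gvin1 was also below its naive level in both transplant libraries in other lineages. It stood at 125, 16.6 and 31.4 CPM in NK cells, 48.8, 9.34 and 7.09 CPM in B cells and 103, 8.11 and 8.90 CPM in monocytes. Its difference was therefore not particular to T cells.

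RNA of the ligand of the gamma pathway was low in T cells. Ifng stood at 8.60, 4.23 and 1.64 CPM in T cells (13 UMIs at 2 hours) and at 41.9, 37.9 and 63.3 CPM in NK cells, its main source here. How the Ifng levels relate to the levels of the members was also not tested. Ifngr1 and Ifngr2 encode the receptor, and Ifngr1 stood at 863, 728 and 753 CPM in T cells. Ifngr2 stood at 121, 273 and 91.7 CPM in T cells, highest at 2 hours but below naive at 3 days (log2 ratio -0.40, -0.56 to -0.24). Socs1 stood at 53.0, 206 and 82.1 CPM, the order of libraries seen for the summed members. Irf1 stood at 127, 195 and 164 CPM, below 2-fold between 2 hours and naive. Of the 8 receptor and signalling genes, 2 (Ifngr2 and Socs1) were over 2-fold higher at 2 hours than in naive T cells, where 7.2% of genes were. In the same contrast 1 (Jak2) was over 2-fold lower, where 26.2% of genes were. In NK cells Ifngr2 stood at 2.81, 34.2 and 15.2 CPM and Socs1 at 18.02, 69.3 and 24.8 CPM, both over 2-fold higher at 2 hours than in naive cells, where 8.29% of genes were. Ifngr2 reached the filter there only through the transplant libraries. The 2-hour NK cells carried the T markers given above, and the part of T cell RNA in both levels was not tested.

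Other interferon gamma targets in T cells stayed below 2-fold at 2 hours. Of 13 such genes 6 passed the level filter in T cells. None of these was over 2-fold higher at 2 hours than in naive T cells, where 7.2% of genes were. Nlrc5 was over 2-fold lower, where 26.2% of genes were. At 2 hours it was also below its naive level in NK cells, B cells and monocytes, though not in neutrophils. The immunoproteasome gene Psmb8 stood at 207, 204 and 207 CPM, and the peptide transporter gene Tap1 at 63.3, 102 and 83.9 CPM, the order of libraries of the members. In neutrophils, where Gbp2 was highest at 3 days, Psmb8 stood at 90.3, 31.1 and 111 CPM and Tap1 at 36.1, 20.5 and 52.5 CPM, the order of libraries of Gbp2. Cxcl10, Psmb8, Psmb9 and Tap1 were the 4 of 7 over 2-fold higher at 3 days than at 2 hours in neutrophils, where 13.4% of genes were. Cd274 (160, 250 and 123 CPM) and Nlrc5 (28.0, 37.4 and 18.5 CPM) were over 2-fold lower in that contrast, where 6.55% of genes were.

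Type I interferon targets gave a mixed picture. In T cells 4 of 9 tested genes (Isg15, Ifit1, Rtp4 and Slfn5) were over 2-fold higher at 2 hours than in naive cells, where 7.2% of genes were. In the same cells 5 of 9 were over 2-fold lower at 3 days than at 2 hours, where 7.61% of genes were. Isg15, a ubiquitin-like protein, stood at 29.4, 101 and 21.9 CPM in T cells. In neutrophils 9 of 12 were over 2-fold lower at 2 hours than in naive cells, where 23.1% of genes were, with Rsad2 (viperin) at 195, 70.3 and 121 CPM. Summed over the list, the targets held 769, 971 and 397 CPM in T cells and 2370, 1161 and 1675 CPM in neutrophils. The highest value in T cells and the lowest in neutrophils thus fell at 2 hours, as for the summed members. In T cells the 3-day value of the targets was below the naive one, whereas that of the summed members was above it. Ifna1, Ifna2 and Ifna4 held 0 UMIs in the T, NK and B cells, neutrophils and monocytes of all 3 libraries, and their receptor gene Ifnar1 stood at 116, 123 and 143 CPM in T cells. Ifnb1, a further ligand, held 1 UMI in naive monocytes and 5 UMIs in 3-day macrophages. Plasmacytoid dendritic cells (22, 65 and 113 cells) were not read for these ligands.

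Conjugation proteins place these GTPases on vacuoles. Of 5 genes (Atg3, Atg5, Atg7, Atg12 and Atg16l1), none was over 2-fold higher at 2 hours than in naive T cells, where 7.2% of genes were. Atg7 was over 2-fold lower, at 44.4, 17.2 and 17.9 CPM, where 26.2% of genes were. At 2 hours Atg7 was also below its naive level in NK cells, B cells, neutrophils and monocytes. Atg12 stood at 54.0, 87.8 and 64.1 CPM, higher at 2 hours than in naive T cells beyond counting error (0.70, 0.46 to 0.94) but below 2-fold. An antibody against CD119, the protein of Ifngr1, was among 277 antibody features of the transplant libraries. It gave at most 5 counts in any lineage and so no reading of the receptor on the cell surface.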

How the data were processed

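Lungs were profiled by droplet single-cell RNA-seq. The deposited matrices hold UMI counts per gene and barcode, which the authors made with Cell Ranger on mm10 (version 7.1.0 for the naive and 6.0.0 for the transplant libraries per the file headers), while the submitters' processing notes name Cell Ranger 6 and Seurat 4. No normalization was applied in the deposited counts. Barcodes were kept if they had over 200 but under 6000 genes, less than 25000 UMIs and a mitochondrial share below 10%, and were clustered in Seurat 5.3.0 (SCTransform 0.4.2, 30 principal components, resolution 0.8, R 4.3.3). Clusters were named from marker lists. Cells of a cluster took its lineage, and doublets called by Scrublet (43, 393 and 271 cells, scanpy 1.11.5) were kept and removed only as an alternative.

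UMIs were summed per library and lineage and given as CPM with exact 95% Poisson intervals, and ratios with exact conditional intervals (Python 3.11.15, scipy 1.17.1). PCR duplicates are collapsed by UMIs, and intervals and the limit for 0 UMIs (3 counts) cover counting error only. A gene was called past 2-fold when its log2 ratio was over 1 or under -1, among genes that averaged 10 CPM or more over the 3 libraries of a lineage. For macrophages that average left out the 2-hour library. No test was run, since each group is 1 library. Groups came from the treatment labels. Named genes were all members, genes of the 7 other lists with at least 50 CPM in some lineage and library, and the 10 genes with profiles most like the members' mean. Gbp6, Gbp9, Cxcl10, Ifna1, Ifna2, Ifna4, Ifnb1 and the leading genes of clusters fell outside this rule in the 6 lineages and were named after their values were seen. The members, the lists and the alternatives were chosen with earlier results of these data known. The ratio code was tested on simulated counts. Antibody counts of the transplant libraries were read for CD119 only. A gene of the signalling list is not reported here.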

Additional observations from a re-analysis of the deposited data

Results flagged for a closer look

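The direction of the summed members differed between lineages under the same contrast. For 2 hours to naive the log2 ratio was 1.93 in T cells, -0.42 in neutrophils and -0.61 in monocytes, so T cells differed from neutrophils by 2.35 and from monocytes by 2.54. For 3 days to 2 hours it was -1.48 in T cells, 1.05 in neutrophils and 0.67 in monocytes, differences of -2.52 and -2.14. In each case the counting intervals of both lineages lay on opposite sides of 0. With 1 library per group, the difference between lineages was not tested. With cells called one by one from markers the ratio of 2 hours to naive was 0.25 in neutrophils and -0.0033 in monocytes, so the opposite direction in that contrast depends on how these lineages were called. Called that way, levels at 2 hours and 3 days were 151 and 182 CPM in neutrophils and 140 and 159 CPM in monocytes. The size of the difference between these libraries therefore also depends on the calling. Relative to the median gene the ratio of 2 hours to naive was -0.17 in neutrophils and -0.31 in monocytes. For 3 days to 2 hours it was 0.81 and 0.43.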

How the results depend on the processing

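Each group was 1 library, so none was left out, and precision rests on UMIs alone, which were fewest in monocytes at 2 hours. No paired analysis was possible because each group holds 1 library. Alternatives for 2 hours to naive, without Gbp7 and without cluster 3 were chosen after seeing the data. Values are log2 ratios of the summed members that moved beyond their counting interval. T cells kept their direction in all 3 contrasts under every alternative run.

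For 2 hours to naive, the T ratio (1.93) was 1.77 with lineages called per cell, 1.82 without a cell filter as well, 2.07 with cells thinned to 500 UMIs, 2.02 over UMIs outside ribosomal protein, mitochondrial and immunoglobulin genes, 2.25 after subtracting the median gene, 2.03 as a mean over cells, 1.71 without Gbp7 and 1.65 without cluster 3. NK (0.53) had 0.80 after subtracting the median gene and 0.20 without Gbp7. B (0.72) had 0.40 called per cell, 0.43 without a filter, 0.31 thinned, 1.07 after subtracting the median gene and 0.41 without Gbp7. Neutrophils (-0.42) reversed to 0.25 called per cell and to 0.15 without a filter, and had -0.66 without doublets, -0.17 after subtracting the median gene, -0.71 as a mean over cells and -0.69 without Gbp7. Monocytes (-0.61) had -0.0033 called per cell, -0.018 without a filter, -1.13 thinned and -1.12 without Gbp7.

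For 3 days to naive, T (0.45) had 0.77 thinned, 0.66 over the restricted UMIs, 0.63 after subtracting the median gene and 0.58 as a mean over cells. NK (0.57) had 0.83 called per cell and 0.82 without a filter. B (0.65) had 0.39 thinned. Neutrophils (0.63) had 0.41 without a filter and 0.92 thinned. Macrophages (0.68) had 1.19 called per cell, 1.15 without a filter, 0.20 thinned and 1.25 without Gbp7.

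For 3 days to 2 hours, T (-1.48) had -1.36 called per cell, -1.38 without a filter, -1.29 thinned, -1.36 over the restricted UMIs, -1.59 after subtracting the median gene, -1.23 without Gbp7 and -1.20 without cluster 3. NK (0.04) had 0.32 called per cell and without a filter, -0.21 after subtracting the median gene and 0.40 without Gbp7. B (-0.07) had -0.34 after subtracting the median gene and 0.17 without Gbp7. Neutrophils (1.05) had 0.27 called per cell, 0.26 without a filter, 1.29 without doublets, 1.28 thinned, 0.81 after subtracting the median gene, 1.34 as a mean over cells and 1.22 without Gbp7. Monocytes (0.67) had 0.18 called per cell, 0.16 without a filter, 1.24 thinned and 1.05 without Gbp7. The causes were not tested. After subtracting the median gene, members past 2-fold numbered 9 instead of 7 in T cells, 2 instead of 1 in NK cells and 4 instead of 2 in B cells for 2 hours to naive, and 1 instead of 3 in monocytes for 3 days to 2 hours. This step shifts every gene alike, and the share of all genes past 2-fold after it was not computed. These counts therefore have no background and are not read as a result about the members. Without the level filter 6.09% instead of 2.88% of genes were over 2-fold higher in T cells for 3 days to naive.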
